A study of Homo sapiens with 6 samples.

Results

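The genes described here are APAF1, the initiator caspases CASP9, CASP8 and CASP10, the inhibitors of apoptosis XIAP, BIRC2 and BIRC3, and DIABLO. They were chosen by name, through the Ensembl identifier of each symbol, and make up 8 of the 60483 genes in the count table. All 8 were listed there, and all 8 were among the 16198 genes that passed the filter on low counts and were tested. RNA-seq counts were available for 3 libraries of A2780, a human ovarian carcinoma cell line with genotype WT, and for 3 libraries of an A2780 CDK12 KO line. The KO line was a single clone, isolated after 2 rounds of CRISPR/Cas9 transfection directed against exon 1 of CDK12, so that the genotype and the clone cannot be told apart. The study reports that this clone had a doubled DNA content and nearly double the chromosome number of the parental cells. The part of this difference in the results below was not tested. The labels name no drug treatment for either group. The labels do not say whether the libraries of a group came from separate cultures, and the p-values then measure only the spread between these libraries, which may be technical.

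Total counts lay between 11098400 and 30899045 per library, with the smallest total in WT replicate 3. Levels are given in CPM, the count of a gene per 1000000 counts of the TMM-scaled total of its library, and 3 counts corresponded to 0.1 to 0.27 CPM. Such floors cover counting error only. CDK12 itself averaged 115 ± 11.1 CPM in WT libraries and 98.0 ± 4.64 CPM in KO libraries (SD, n = 3 each), and gene counts do not separate edited from unedited transcripts. Among 7 epithelial markers of ovarian carcinoma, KRT18 was the highest, with 58.1 to 62.0 CPM in WT libraries, and the list summed to 68.5-74.0 CPM in WT and 114-119 CPM in KO libraries. EPCAM was at 3.9 CPM or less, KRT19, PAX8 and WT1 had at most 11 counts in a library, and MUC16 did not exceed 3 counts. The 5 leukocyte markers summed to 0.267-0.72 CPM in WT and 0.674-1.19 CPM in KO libraries, with PTPRC and CD3E at no more than 3 counts, and the 3 endothelial markers summed to at most 0.892 CPM. The 5 fibroblast markers summed to 6520-6780 CPM in WT and 5960-6180 CPM in KO libraries, most of it COL3A1, whose libraries overlapped between the groups. COL1A1 averaged 629 ± 25.1 CPM in WT and 122 ± 9.98 CPM in KO libraries, and PDGFRB 7.35 ± 0.374 and 1.97 ± 0.0673 CPM (SD, n = 3 each). DCN and LUM, at 0.81 CPM or less in WT libraries, had 0 counts in the KO libraries. The part of these differences in the results below was not tested.

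Caspases are proteases that are made as inactive precursors. In the mitochondrial pathway, cytochrome c released from mitochondria binds APAF1, which assembles into the apoptosome and activates caspase 9. In the death receptor pathway, ligand-bound receptors such as FAS recruit the adaptor FADD, which brings together and activates CASP8 and CASP10. Both pathways converge on the executioner caspases. XIAP blocks caspase activity directly, whereas BIRC2 and BIRC3 act mainly as ubiquitin ligases at tumor necrosis factor receptors, and DIABLO, once released from mitochondria, binds these inhibitors and relieves the block.

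As a share of library RNA, CDK12 KO cells had less APAF1 RNA, more CASP9 RNA and less RNA of XIAP, BIRC2 and BIRC3 than WT cells. Of the 8 genes, 1 was higher and 4 were lower in KO at an adjusted p under 0.05 (edgeR's quasi-likelihood test, Benjamini-Hochberg adjustment over all tested genes). Over all tested genes 31.9% were higher and 32.0% lower by the same rule, so the 8 genes were called about as often as the genes of the whole table. With the additional requirement of a log2 fold change (log2FC, KO over WT) above 1 or below -1, only APAF1 was called, as down-regulated, and none of the 8 as up-regulated, against 7.73% and 8.3% of all tested genes. In the same 5 genes the KO libraries lay entirely on 1 side of the WT libraries, above for 1 gene and below for 4, whereas 32.8% of all tested genes lay above and 33.5% below without overlap. The median log2FC of the 8 genes was -0.10, and that of all tested genes was 0.00. CPM are shares of a library's RNA and do not give the amount of RNA per cell, which may differ in a clone with more DNA. In bulk RNA, fewer cells expressing a gene and less RNA per cell cannot be told apart.

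The genome sequence between the start of APAF1 and that of its neighbour is shown, because the neighbour is transcribed in the opposite direction from the same short stretch and was measured too. It is read from GRCh38 on the plus strand, 5′ to 3′, and capitals mark CG dinucleotides, the bases at which promoters can be methylated. It lies at chr12:98645114-98645289 between IKBIP and APAF1.
IKBIP to APAF1: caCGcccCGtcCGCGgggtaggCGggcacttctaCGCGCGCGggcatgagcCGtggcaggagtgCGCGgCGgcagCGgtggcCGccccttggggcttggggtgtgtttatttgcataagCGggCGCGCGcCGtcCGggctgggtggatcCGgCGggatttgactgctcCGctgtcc

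The stretch beside APAF1 is 176 bases long with 24 CG dinucleotides. DNA methylation was not analysed here. IKBIP, a protein of the endoplasmic reticulum, averaged 49.9 ± 1.67 CPM in WT libraries and 36.7 ± 2.38 CPM in KO libraries (± SD, n = 3), log2FC -0.43 (SE 0.0601, edgeR adjusted p = 1.76e-07). CASP9 also has a neighbour on the other strand, the DnaJ-type chaperone gene DNAJC16, 278 bases from its outermost start in GENCODE, but the CASP9 start in the RefSeq table lies 1744 bases further inside the gene. DNAJC16 averaged 28.7 ± 3.25 CPM in WT libraries and 37.7 ± 3.73 CPM in KO libraries, log2FC 0.37 (SE 0.0756, edgeR adjusted p = 6.87e-05). Each neighbour therefore had the sign of its partner. By GENCODE starts, among all 674 pairs of tested protein-coding genes that lie head to head within 1000 bases, 58.8% shared a sign, against 56.6% of the 9397 other adjacent pairs, and this comparison was chosen after the values of IKBIP and DNAJC16 were seen.

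The 250 bases before the start of BIRC3, from RefSeq on GRCh38.p14, are shown because BIRC3 is a well-known target of NF-kB, a transcription factor that several of its regulators measured here act on. They lie at chr11:102317234-102317483 on the plus strand, and capitals mark a match to the NF-kB-like motif GGNNTTTCC on the opposite strand.
BIRC3: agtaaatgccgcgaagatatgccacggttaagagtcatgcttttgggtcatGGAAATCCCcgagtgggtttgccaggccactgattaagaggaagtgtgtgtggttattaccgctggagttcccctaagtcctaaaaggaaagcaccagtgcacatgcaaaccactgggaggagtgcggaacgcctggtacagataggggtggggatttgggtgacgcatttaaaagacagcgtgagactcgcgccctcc

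The match begins 199 bases before the start of the gene. Of 35116 such windows in the RefSeq table, 5.48% held this motif on either strand. Among the other members with a window, XIAP held it once, beginning 57 bases before the start, and APAF1, CASP9, CASP8, BIRC2 and DIABLO did not hold it. CASP10 had no window to search, and neither an E2F-like motif, TTTNGCGC, nor TATAAA was found in the 7 windows. In number of CG dinucleotides the windows of APAF1 and BIRC2 were high, with 38 and 33 in 250 bases, whereas BIRC3 had 11, the median of all windows, and XIAP had 4. The windows of the genes that were lower in KO held from 4 to 38 CG dinucleotides, and a relation between CG content and change was not tested. A motif match is a description of the sequence and not of binding.

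APAF1 (ENSG00000120868) encodes the scaffold of the apoptosome and lies on chromosome 12 from 98645290 to 98735433, with 27 exons in a canonical transcript. Its counts were 671, 783 and 285 in WT and 241, 246 and 166 in KO. Scaled to the library, these were 24.5, 26.1 and 25.7 CPM in WT and 9.81, 9.14 and 9.33 CPM in KO. The libraries within each group were close together, and every KO library was far below every WT library. The KO mean was 37.1% of the WT mean, log2FC -1.43 (SE 0.079, 95% interval -1.59 to -1.27, edgeR adjusted p = 8.6e-17). With 3 libraries against 3, a two-sided exact permutation test of log2 CPM cannot go below p = 0.1, the value it gave. Of the 16198 tested genes, 876 had a lower log2FC, or 5.41%.

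CASP9 (ENSG00000132906), the caspase that the apoptosome activates, lies on the minus strand of chromosome 1 from 15490832 to 15526534. Its counts were 435, 455 and 162 in WT and 544, 581 and 430 in KO libraries, or 15.9, 15.2 and 14.6 CPM in WT and 22.1, 21.6 and 24.2 CPM in KO. KO replicates 1 and 2 had more CASP9 counts than any WT library, although their total counts were below those of WT replicates 1 and 2. KO replicate 3, with 430 counts, was above WT replicate 3 only. The log2FC was 0.56 (SE 0.0754, edgeR adjusted p = 1.17e-07), and the KO mean was 149% of the WT mean. APAF1 and CASP9, which work in 1 complex, thus differed from WT in opposite directions.

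The 2 genes can be compared within a library, where the scaling between libraries plays no part. Per kilobase of exon, the ratio of APAF1 to CASP9 reads was 1.05, 1.17 and 1.19 in WT and 0.301, 0.288 and 0.263 in KO. The ratio was near equality in all WT libraries and well below it in all KO libraries. The difference of the log2 ratio was -2.0, a 4.0-fold lower ratio in KO (p = 0.1 by two-sided exact permutation, the lowest such a design gives, adjusted p = 0.267 over 4 ratios).

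The list of genes of caspase activation at the apoptosome holds 5 genes. CASP9 was higher and APAF1, CYCS, PTMA and ANP32A were lower at an adjusted p under 0.05, whereas 31.9% of all tested genes were higher and 32.0% lower. CYCS, which encodes cytochrome c, averaged 240 ± 3.28 CPM in WT libraries and 180 ± 5.19 CPM in KO libraries (± SD, n = 3), log2FC -0.42 (edgeR adjusted p = 2.6e-09). The log2FC values of PTMA and ANP32A, which encode acidic nuclear proteins reported to act on apoptosome formation, were -0.35 and -0.31 (edgeR adjusted p = 8.42e-07 and 7.53e-07). The median log2FC of the list was -0.35, against 0.00 for all tested genes. The list was not split into genes reported to promote and genes reported to restrain caspase activation, so its median gives no direction for that step.

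CASP8 and CASP10, the initiator caspases of death receptors, are neighbours on chromosome 2, with CASP10 from 201182872 to 201229428 and CASP8 from 201233443 to 201361836 on the plus strand. CASP8 (ENSG00000064012) had 50.3, 50.1 and 51.6 CPM in WT and 50.6, 51.7 and 53.2 CPM in KO libraries. The groups overlapped, and the log2FC was 0.04 with a 95% interval of -0.08 to 0.15 (edgeR adjusted p = 0.588). CASP8 was counted at least 573 times in each library, and a change of the size seen in APAF1 lay far outside this interval.

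CASP10 (ENSG00000003400) had 16.9, 15.2 and 12.8 CPM in WT and 17.5, 15.4 and 19.2 CPM in KO libraries, with overlapping groups. The log2FC was 0.17 with a 95% interval of -0.01 to 0.36 (edgeR adjusted p = 0.0936). This result depended on single libraries. The log2FC was 0.26 both without WT replicate 1 (edgeR adjusted p = 0.0188) and without KO replicate 2 (edgeR adjusted p = 0.0231), and CASP10 was then called higher, but 0.10 without WT replicate 3 (edgeR adjusted p = 0.343) and 0.11 without KO replicate 3 (edgeR adjusted p = 0.363). Per kilobase of exon, CASP8 reads were 3.67, 4.07 and 4.96 times those of CASP10 in WT and 3.55, 4.14 and 3.41 times in KO libraries, and this ratio overlapped between the groups (log2 difference -0.19, two-sided exact permutation p = 0.3, adjusted p = 0.3 over 4 ratios).

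The third gene of this locus is CFLAR, which encodes FLIP, a catalytically inactive relative that competes with CASP8 at the receptor. It starts the row of 3 genes and ends 6.18 kb before CASP10. CFLAR averaged 28.2 ± 1.72 CPM in WT libraries and 36.5 ± 0.337 CPM in KO libraries (± SD, n = 3), log2FC 0.36 (SE 0.0631, edgeR adjusted p = 7.41e-06). It was thus higher in KO, while neither caspase beside it passed the test; whether the 3 genes differ in their change was not tested.

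Among the other caspases, CASP2, an initiator activated on the PIDDosome, was higher in KO, with log2FC 0.33 (edgeR adjusted p = 7.97e-06). PIDD1, the scaffold of that complex, averaged 63.3 ± 5.71 CPM in WT libraries and 120 ± 7.48 CPM in KO libraries, log2FC 0.94 (edgeR adjusted p = 3.85e-15), and CRADD, which links PIDD1 to CASP2, had log2FC -0.20 (edgeR adjusted p = 0.108). CASP6, which acts downstream of the initiators, was lower by log2FC -0.22 (edgeR adjusted p = 0.00559). Of 4 inflammatory and other caspases, CASP4 fell from 25.0 ± 1.6 to 14.1 ± 1.04 CPM, CASP5 rose from 1.3 ± 0.292 to 3.63 ± 0.124 CPM (SD, n = 3 each), CASP1 did not pass the test, and CASP14 had 0 counts in every library. The log2FC values of CASP4 and CASP5 were -0.84 and 1.39 (edgeR adjusted p = 2.97e-11 and 4.08e-08), and CASP5 passed both thresholds on 11 to 47 counts in the WT libraries and 66 to 94 in the KO libraries.

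XIAP (ENSG00000101966), the inhibitor that binds caspases most directly, lies on chromosome X from 123859712 to 123913972. It had 85.6, 87.6 and 94.6 CPM in WT and 75.2, 70.2 and 81.7 CPM in KO libraries. The highest KO library was just below the lowest WT library. The KO mean was 84.8% of the WT mean, log2FC -0.23 (SE 0.0563, edgeR adjusted p = 5.29e-04). Of 3 listed XIAP pseudogenes, the most counted had 22 reads over all libraries, against 1050 or more for XIAP in each.

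BIRC2 (ENSG00000110330) and BIRC3 (ENSG00000023445), the genes of cIAP1 and cIAP2, are tandem neighbours on the plus strand of chromosome 11, BIRC3 from 102317484 to 102339403 and BIRC2 from 102347211 to 102378670. BIRC2 had 98.5, 103 and 105 CPM in WT and 82.3, 71.5 and 74.7 CPM in KO libraries. The groups were separate, and the log2FC was -0.42 (SE 0.0543, edgeR adjusted p = 4.76e-08).

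BIRC3 was a weakly expressed gene in this line. It was counted 154, 150 and 59 times in WT and 74, 97 and 53 times in KO libraries, or 5.62, 5.01 and 5.31 CPM in WT and 3.01, 3.60 and 2.98 CPM in KO. The log2FC was -0.72 with a 95% interval of -1.0 to -0.44 (SE 0.137, edgeR adjusted p = 3.32e-05). Its decrease was larger than that of BIRC2 in the fit, but the ratio of the 2 genes within a library did not separate the groups. Per kilobase of exon, BIRC2 reads were 29.0, 34.0 and 32.3 times those of BIRC3 in WT and 45.0, 32.7 and 41.2 times in KO libraries (log2 difference 0.31, two-sided exact permutation p = 0.2, adjusted p = 0.267 over 4 ratios).

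In the whole family of inhibitors of apoptosis, 8 genes were listed and 6 tested, of which 4 were lower, none was higher and 2 did not pass the test, beside 32.0% lower and 31.9% higher of all tested genes. BIRC5, which encodes survivin and serves mainly in mitosis, averaged 164 ± 2.96 CPM in WT libraries and 134 ± 5.35 CPM in KO libraries (± SD, n = 3), log2FC -0.30 (edgeR adjusted p = 2.93e-06). BIRC6, the largest member of the family, had log2FC 0.07 (95% interval -0.05 to 0.19, edgeR adjusted p = 0.294). BIRC7 had at most 34 counts in a library, NAIP at most 8 and BIRC8 none. The median log2FC over the 6 genes was -0.27.

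DIABLO (ENSG00000184047), which encodes the antagonist also called SMAC, lies on the minus strand of chromosome 12 from 122207663 to 122227456. It had 5.22, 4.64 and 4.77 CPM in WT and 6.47, 5.72 and 4.78 CPM in KO libraries. KO replicate 3 lay within the WT range while the other KO libraries lay above it. The log2FC was 0.23 with a 95% interval of -0.04 to 0.49 (edgeR adjusted p = 0.125), and it was 0.12 without KO replicate 1 (edgeR adjusted p = 0.504) and 0.32 without KO replicate 3 (edgeR adjusted p = 0.0431). The level of DIABLO is uncertain. A further protein-coding gene, ENSG00000256861, overlaps it on the same strand over 19678 bases and had 0 counts in every library, and how reads in exons of both genes were assigned is not given in the sources used here.

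HTRA2, a mitochondrial protease that also antagonizes inhibitors of apoptosis, was measured more precisely. It averaged 32.1 ± 0.535 CPM in WT libraries and 41.6 ± 0.974 CPM in KO libraries (± SD, n = 3), log2FC 0.37 (SE 0.0592, edgeR adjusted p = 1.85e-06). Of the 4 antagonists listed, 3 were tested, and XAF1 had too few counts to be tested. HTRA2 was higher and none was lower, beside 31.9% higher and 32.0% lower of all tested genes. DIABLO reads per kilobase were 0.0837, 0.0727 and 0.0697 times those of XIAP in WT and 0.118, 0.112 and 0.0804 times in KO libraries. The 2 groups overlapped through KO replicate 3 (log2 difference 0.44, two-sided exact permutation p = 0.2, adjusted p = 0.267 over 4 ratios).

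Ordered by CPM per kilobase of exon, the WT levels ran from BIRC2 (22.6 ± 0.698), XIAP (9.37 ± 0.493) and CASP8 (7.0 ± 0.114) through APAF1 (3.28 ± 0.109), CASP9 (2.89 ± 0.122) and CASP10 (1.67 ± 0.229) to BIRC3 (0.71 ± 0.041) and DIABLO (0.701 ± 0.0436), each with its SD over 3 libraries. The libraries of neighbours in this order did not overlap, except those of BIRC3 and DIABLO. In KO the first 3 kept their places, with 16.9 ± 1.23, 7.95 ± 0.605 and 7.16 ± 0.182 CPM per kilobase. APAF1 moved from place 4 to place 6, with 1.21 ± 0.0445 CPM per kilobase, behind CASP9 with 4.29 ± 0.258 and CASP10 with 1.95 ± 0.216. BIRC3 was last in KO, with 0.427 ± 0.047 CPM per kilobase. Exon length was that of the union of all annotated exons of a gene, and the isoforms used by the cells were not analysed here. The place of DIABLO and its ratio to XIAP are uncertain, since how reads shared with the overlapping gene were assigned is not given.

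Several receptors upstream of CASP8 and CASP10 passed the test. Of 11 receptors and ligands, 7 were tested, 4 were higher, 1 was lower and 2 did not pass the test, beside shares of 31.9% higher and 32.0% lower in the whole table. FAS was counted 316, 357 and 123 times in WT and 5563, 5785 and 3866 times in KO libraries, and TNFRSF1A, the main receptor of tumor necrosis factor, rose from 120 ± 6.39 to 158 ± 1.75 CPM (SD, n = 3 each), log2FC 0.39 (edgeR adjusted p = 3.11e-08). TNFRSF10D, a decoy receptor for TRAIL that lacks a working death domain, fell from 22.5 ± 1.73 to 9.11 ± 0.487 CPM, log2FC -1.31 (SE 0.0853, edgeR adjusted p = 6.14e-15). TNFRSF10B, the signalling TRAIL receptor DR5, averaged 193 ± 4.19 CPM in WT libraries and 186 ± 6.91 CPM in KO libraries (log2FC -0.05, 95% interval -0.15 to 0.04, edgeR adjusted p = 0.333).

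TNFRSF10A, the other signalling TRAIL receptor, had 0 counts in every library. The ligands were at or near the floor: FASLG had 0 counts everywhere, TNF at most 4 and TNFSF10, which encodes TRAIL, at most 3. LTA, the gene of lymphotoxin alpha, passed both thresholds with log2FC 1.20 (edgeR adjusted p = 0.0127), but it was counted only 6, 6 and 2 times in WT and 11, 12 and 10 times in KO libraries.

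Of 13 adaptors and regulators of death receptors, all tested, 5 were higher and 5 lower, beside 31.9% and 32.0% of all tested genes, and 3 did not pass the test, among them FADD (log2FC -0.09, 95% interval -0.24 to 0.05, edgeR adjusted p = 0.244). BIRC2 and BIRC3 act in a complex with TRAF2 and TRAF3, and this complex marks the kinase NIK, encoded by MAP3K14, for degradation. RNA of these partners was lower too. MAP3K14 averaged 70.3 ± 2.22 CPM in WT libraries and 22.2 ± 1.65 CPM in KO libraries (± SD, n = 3), log2FC -1.66 (SE 0.0621, edgeR adjusted p = 1.95e-21), TRAF2 had log2FC -0.67 (edgeR adjusted p = 2.3e-09) and TRAF3 of -0.43 (edgeR adjusted p = 3.31e-07). RIPK1, a kinase that is modified by the BIRC2 and BIRC3 ligases, was lower by log2FC -0.35 (edgeR adjusted p = 3.41e-06). These genes were put side by side after their values were seen.

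The deubiquitinase CYLD, which removes the ubiquitin chains formed at these receptors, was higher, with 35.2 ± 2.06 CPM in WT and 67.4 ± 2.88 CPM in KO, log2FC 0.94 (SE 0.0591, edgeR adjusted p = 2.83e-15). Of the subunits of the linear ubiquitin ligase, RBCK1 was higher, with log2FC 0.55 (edgeR adjusted p = 7.17e-10). RNF31 and SHARPIN had log2FC values of 0.17 and -0.17 (edgeR adjusted p = 0.0196 and 0.0405), and these calls were lost in 4 and 8 of 12 alternative fits.

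Downstream of the caspases, 11 substrates and nucleases were tested, of which 1 was higher, 4 were lower and 6 did not pass the test, beside 31.9% higher and 32.0% lower of all tested genes. GSN, which encodes the actin-severing protein gelsolin, fell from 75.7 ± 4.21 to 41.8 ± 0.785 CPM (SD, n = 3 each), log2FC -0.85 (edgeR adjusted p = 8.21e-15), and LMNA, the gene of lamins A and C, rose from 344 ± 5.84 to 422 ± 10.6 CPM, log2FC 0.29 (edgeR adjusted p = 1.41e-06). DFFB, the DNase that cuts DNA between nucleosomes, did not pass the test (log2FC 0.02, 95% interval -0.15 to 0.20, edgeR adjusted p = 0.829), and its inhibitor DFFA had log2FC -0.11 (edgeR adjusted p = 0.04). The calls of DFFA and of ENDOG, a mitochondrial nuclease also counted as lower, were lost in 7 and 8 of 12 alternative fits.

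Over all 9 lists, which hold 62 different genes, 54 genes were tested, 14 were higher, 20 were lower and 20 did not pass the test. As shares of the tested genes these counts stand beside 31.9% higher and 32.0% lower in the whole table. Past both thresholds, CASP5, FAS and LTA were up-regulated and APAF1, TNFRSF10D and MAP3K14 down-regulated. The median log2FC of the 54 genes was -0.05.

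The position of the genes was not used to choose them. Within 500 kb of the 6 loci that hold the 8 genes, 51 other protein-coding genes were tested, of which 10 were higher and 28 lower at an adjusted p under 0.05, against 31.9% higher and 32.0% lower of all tested genes, with a median log2FC of -0.18. Around APAF1 all 3 tested neighbours were lower, IKBIP, SLC25A3 and TMPO, with log2FC values of -0.43, -0.30 and -0.18, each smaller in size than that of APAF1 itself. On its other side the nearest tested gene, BLTP3B, was 1290 kb away and had log2FC 0.03 (edgeR adjusted p = 0.668). Around CASP9, 14 genes were tested, 3 higher and 6 lower, and EFHD2, the nearest on the side away from DNAJC16, had log2FC -0.15, a call lost in 5 of 12 alternative fits.

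Around CASP8 and CASP10, 4 of 12 neighbours were higher and 8 lower, against 31.9% higher and 32.0% lower of all tested genes. TRAK2, the nearest gene on the CASP8 side, had log2FC -0.34 (edgeR adjusted p = 6.33e-06). XIAP lies 46.2 kb from STAG2, a cohesin subunit gene that rose from 229 ± 8.99 to 496 ± 41.7 CPM (SD, n = 3 each), log2FC 1.11 (edgeR adjusted p = 2.35e-18), and 127 kb from THOC2, with log2FC 0.18. XIAP, which was lower, thus lay between 2 genes that were higher. The third tested neighbour, GRIA3, which encodes a glutamate receptor subunit, was lower, with 0.891 CPM in WT and 0.0124 CPM in KO on average.

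Around BIRC2 and BIRC3, 5 of 6 neighbours were lower and none was called higher, against 31.9% higher and 32.0% lower of all tested genes. The other neighbour, CEP126, had log2FC 0.28 (edgeR adjusted p = 0.0849), with every KO library above every WT library. TMEM123, 17.7 kb beyond BIRC2, had log2FC -0.47 (edgeR adjusted p = 2.46e-10), close to that of BIRC2, and YAP1, 84.1 kb before BIRC3, of -0.16 (edgeR adjusted p = 0.00411). The matrix metalloproteinase genes that begin 392 kb beyond BIRC2 fell far more, MMP10 from 226 ± 8.56 to 0.879 ± 0.0856 CPM and MMP1 from 725 ± 9.55 to 4.82 ± 0.238 CPM (SD, n = 3 each). Around DIABLO, 13 genes were tested, 1 higher and 5 lower, beside the same shares of all tested genes. Its nearest neighbours were B3GNT4, which overlaps it on the opposite strand, and VPS33A. Their log2FC values were -0.05 and -0.24 (edgeR adjusted p = 0.843 and 0.0067).

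In genomic span the genes run from 19794 bases for DIABLO to 128394 bases for CASP8, against a median of 33585 bases over tested protein-coding genes. The gene with the largest decrease, APAF1, spans 90144 bases. CASP8 is longer still, longer than 85.2% of tested protein-coding genes, and was not called, and BIRC3, with the next largest decrease, spans 21920 bases. Genes that overlap APAF1 and CASP8 on the opposite strand, ANKS1B and FLACC1, had at most 6 and 17 counts in a library. Among these 8 genes the order of spans was not the order of changes, and a relation between span and change was not tested.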

How the data were processed

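The authors deposited raw counts per Ensembl gene for the 6 libraries. Per the labels and the methods of the study, stranded single-end reads of 75 bases were checked with FastQC, aligned with STAR to GRCh38 and counted with HTSeq, and the versions, the annotation release and the strand setting are not given in the sources used here. Groups were taken from the genotype labels. Genes were located in GENCODE release 44 by the identifier stripped of its version, on the same build. The main test was that of edgeR 4.0.16, run under R 4.3.3: filterByExpr (minimum count 10, minimum total 15), TMM scaling and the quasi-likelihood test, two-sided, with Benjamini-Hochberg adjustment over all 16198 tested genes. The study's methods name voom/limma, which was tried as an alternative (limma 3.58.1), as were DESeq2 1.42.0, other scalings, other filters and the omission of each library. Total counts ranged from 11098400 to 30899045, the common biological coefficient of variation was 4.35%, and replicates of either genotype varied beyond counting error. Ratios added 0.5 counts to each gene. The fits were tested on simulated counts in which the changed genes had log2 fold changes of at least 1 in size. Smaller changes, such as most of those reported here, were not checked in this way. The genes and lists were chosen with earlier results of these data known. Named are the 8 genes, in each list the genes past both thresholds and the 2 with the largest called change, the nearest tested neighbours, the 5 genes most like APAF1, and other list genes chosen after their values were seen. Values of some list genes are not reported here.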

Additional observations from a re-analysis of the deposited data

How the results depend on the processing

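The log2 fold changes of all 8 genes kept their sign under limma voom, DESeq2, both other scalings, both other filters and the omission of each library. The 5 called genes passed an adjusted p of 0.05 in each of these, APAF1 with log2 fold changes from -1.47 to -1.40 and XIAP, the smallest change, from -0.29 to -0.18 with adjusted p up to 0.00871. With single libraries left out, the number of the 8 genes called higher was 1 to 2: the log2 fold change of CASP10 ran from 0.10 to 0.26 and that of DIABLO from 0.12 to 0.32, each passing the test in some of these fits. With at least 10 counts in every library, 2 in place of 4 neighbouring genes were down-regulated past both thresholds, since GRIA3 and MMP3 were no longer tested. Of the called genes of the pathway lists, 5 lost their call in at least 1 alternative: LTA with DESeq2 (log2 fold change 1.25, adjusted p = 0.089), RNF31 in 4 of 12 alternatives (adjusted p up to 0.0973), DFFA in 7 (up to 0.138), and ENDOG and SHARPIN in 8 each (up to 0.0816 and 0.259). Among the neighbours 3 did, CLIP1, EFHD2 and FHAD1. No scaling moved the median log2 fold change of all genes by more than 0.03. Each of these scalings centres the bulk of the genes, so a change shared by most genes could not be seen in this way. With 53 to 159 counts per library, DIABLO and BIRC3 were the least precise of the 8 genes. No paired analysis was possible because the library numbers in the labels run on from WT to KO, and no number occurs in both groups.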

Other observations

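Across the 6 libraries, the protein-coding genes whose log2 CPM followed that of APAF1 most closely were WDTC1, SWAP70, RHOBTB3, ZNF595 and HYCC1, with Pearson's r of 0.99991, 0.99974, 0.9997, 0.99967 and 0.99964. They lie on chromosomes 1, 11, 5, 4 and 7 and were all lower in KO. The mean level of WDTC1 was 22.1 ± 0.86 CPM in the WT libraries and 7.13 ± 0.273 CPM in the KO libraries (± SD, n = 3). With 2 groups of 3 libraries such a correlation mostly restates the difference between the groups, and 913 of 12743 genes had r above 0.99, so that it does not set these genes apart.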
